A study of Mus musculus with 10 samples.

Results

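The genes for the protein subunits of the mitochondrial ribosome were followed in retinas of untreated mice aged 3 months. Members were the rows of the deposited count table whose gene name starts with Mrpl or Mrps followed by a digit, leaving out 4 names that end in -ps. This gave 76 of 36115 genes, all 76 annotated as protein coding. The libraries were 5 of wild type and 5 of the line B6.129S2-Il6tm1Kopf/J, as labelled, which has a disrupted interleukin-6 gene. Both groups carry a C57BL/6 background label and the same naive status, and the labels name no litter, sex or date. Nothing in them ties each library to an animal of its own, and a p-value here reflects spread among these libraries, which may be technical. W1 to W5 stand for the wild-type libraries, and K1 to K5 for those labelled knockout.

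Mitochondria hold a ribosome of their own, which translates the messenger RNAs of the mitochondrial genome. Those few messages encode hydrophobic subunits of the respiratory chain and of ATP synthase. The ribosomal RNAs come from mitochondrial DNA, while every protein of the particle is made from a nuclear gene in the cytosol and imported. Some of these proteins have a counterpart in bacterial ribosomes, and others are found only in mitochondria. Photoreceptors pack many mitochondria into the inner segment and rely on them heavily. Transcription of nuclear genes for mitochondrial proteins is known to involve NRF1, factors of the ETS family such as GABP, and YY1.

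Library totals ran from 30433373 to 38857374 counts, and single member genes had from 206 to 3612 counts in a library. Il6, the disrupted gene, had more counts in the libraries labelled knockout. W1 to W5 had 0, 0, 1, 1 and 1 counts of it, whereas K1 to K5 had 3, 3, 5, 7 and 4. On log2(CPM + 1), a two-sided exact permutation test gave p = 0.00794, the smallest that 5 against 5 libraries allow. Gene-level counts do not separate the interrupted part of the gene from the rest, so these counts check nothing about the allele, and directions below are those of the libraries as labelled. Rod photoreceptor markers were high, with 7 of them summing to between 50979 and 71898 CPM (counts scaled to library size with TMM factors) in the 10 libraries. Of these 7, edgeR called 1 lower and 0 higher in libraries labelled knockout (adjusted p under 0.05). Markers of pigment epithelium, a neighbouring tissue, summed to between 28.3 and 354 CPM across W1 to W5 and to between 151 and 291 CPM across K1 to K5, and their part in the results below was not tested. In whole retina, fewer cells of a type and less RNA per cell cannot be told apart.

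The promoters of 6 members are shown first. Mrpl47, Mrpl55 and Mrps10 had the smallest p-values of the family, Mrpl34 had the highest level per length, Mrpl9 holds an NRF1 motif, and Mrps11 shares its promoter with Mrpl46. Sequences are from RefSeq on GRCm38.p6, written along the gene's strand from 150 bases before the transcription start to 30 bases after it, with motif matches in capitals.
Mrpl47: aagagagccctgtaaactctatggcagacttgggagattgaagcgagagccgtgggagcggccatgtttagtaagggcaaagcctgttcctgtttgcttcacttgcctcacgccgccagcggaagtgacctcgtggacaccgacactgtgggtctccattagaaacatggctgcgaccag
Mrpl55: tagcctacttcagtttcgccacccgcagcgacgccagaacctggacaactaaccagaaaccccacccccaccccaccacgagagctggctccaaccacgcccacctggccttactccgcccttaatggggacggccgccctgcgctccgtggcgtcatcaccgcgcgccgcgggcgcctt
Mrps10: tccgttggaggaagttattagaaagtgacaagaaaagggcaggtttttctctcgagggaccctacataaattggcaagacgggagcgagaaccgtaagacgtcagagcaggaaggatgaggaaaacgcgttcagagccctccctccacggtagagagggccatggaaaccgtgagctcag
Mrpl34: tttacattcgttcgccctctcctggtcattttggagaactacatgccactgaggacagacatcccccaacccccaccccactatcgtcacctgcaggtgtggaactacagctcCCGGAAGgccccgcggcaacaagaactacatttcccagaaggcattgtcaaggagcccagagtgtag
Mrpl9: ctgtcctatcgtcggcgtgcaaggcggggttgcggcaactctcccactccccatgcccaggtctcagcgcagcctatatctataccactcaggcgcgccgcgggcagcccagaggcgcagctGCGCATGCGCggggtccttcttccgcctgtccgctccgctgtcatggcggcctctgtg
Mrps11: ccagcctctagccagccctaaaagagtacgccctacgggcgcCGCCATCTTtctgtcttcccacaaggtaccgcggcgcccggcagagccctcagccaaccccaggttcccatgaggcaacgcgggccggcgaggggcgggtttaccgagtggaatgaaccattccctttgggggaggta

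The windows lie at chr3:32736726-32736905 (minus strand), chr11:59202336-59202515 (plus), chr17:47369047-47369226 (plus), chr8:71464776-71464955 (plus), chr3:94443186-94443365 (plus) and chr7:78782981-78783160 (plus). The capitals in Mrpl34 are an ETS match, those in Mrpl9 are NRF1 matches on both strands that overlap, and those in Mrps11 are a YY1 match on the opposite strand. The stretches printed for Mrpl47, Mrpl55 and Mrps10 hold none of the motifs searched, which says only that these letters are absent there. Mrps11 and Mrpl46 are read in opposite directions from start sites 42 bases apart, so both subunits start from the same stretch of DNA.

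RefSeq promoter windows, from 250 bases before to 50 bases after a start, were found for 67 of the 76 members. Each was searched on both strands for GCGCATGCG (NRF1), CCGGAAG (ETS), AAGATGGCG (YY1) and GGGGCGGGG (SP and KLF factors). The ETS letters were in 24 of 67 members (35.8%), against 17.3% of 12256 tested genes with a window and 9.93% of all 27025 genes with one. The YY1 letters were in 8 members (11.9%, against 3.04% and 1.64%) and the NRF1 letters in 7 (10.4%, against 3.58% and 1.95%). The SP and KLF letters were in 13 (19.4%, against 23.1% and 12.9%). In 24 members none of the 4 motifs was found. These shares are descriptions of the sequence and were not tested.

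No member of the family was called different between the groups by edgeR. Of 76 members, all 76 passed the low-count filter, and 0 had an edgeR adjusted p under 0.05, against 2.03% of the 18965 genes tested. At an unadjusted edgeR p under 0.05 there were 10 members (13.2%), 9 higher and 1 lower in libraries labelled knockout, beside 13.8% of all tested genes. DESeq2 called 3 members (3.95%), which were Mrpl55, Mrpl47 and Mrps10, beside 3.7% of 18959 genes, and limma-voom called 0. In the authors' deposited table the same 3 members had an adjusted p under 0.05, beside 3.37% of the 21411 genes given an adjusted p there. The members' shares were therefore near or below those of all genes.

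The counts were deep enough to bound how large a difference could be. The 95% interval of the log2 fold change (libraries labelled knockout over wild type, from the edgeR fit) lay within -0.5 and 0.5, a 1.41-fold difference either way, in 75 of 76 members. The same held for 58.9% of all tested genes, and for 88.4% of the 8062 other tested genes whose mean level lies in the members' range of 7.38 to 79.6 CPM. The exception was Mrpl55, with an upper bound of 0.54. The lowest bound in the family was -0.46, in Mrps10. The median size of the members' log2 fold changes was 0.07, against 0.11 for all tested genes. This last comparison was not matched for level. The median half-width of the 95% interval was 0.18 in members and 0.25 in all tested genes.

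**Figure D1:**
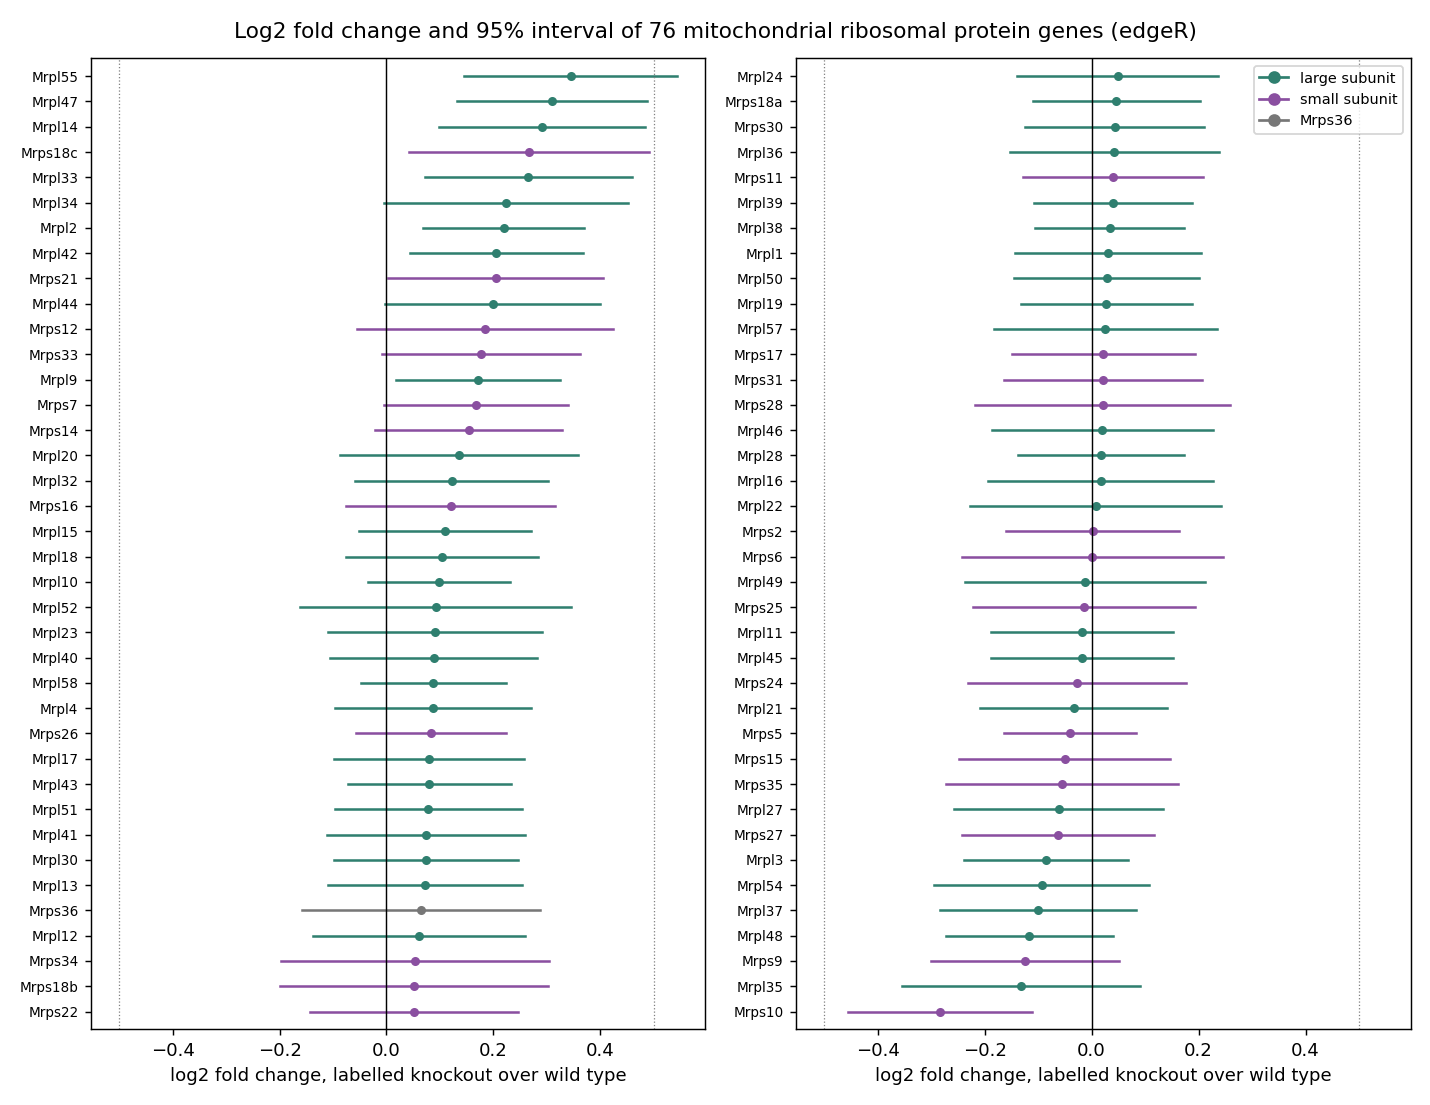
Log2 fold change of each of the 76 members, libraries labelled knockout over wild type (points), with its 95% interval from the edgeR fit (bars), ordered by value and coloured by ribosomal subunit. Mrpl55 reaches 0.54 at the upper end of its interval, and all other intervals lie between the dotted lines at -0.5 and 0.5. Among these, Mrps10 has the lowest bound, at -0.46.

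More members leaned up than down, by small amounts. The log2 fold change was positive in 58 of 76 members (76.3%), against 50.4% of all tested genes, with a median of 0.05 against 0.0018. The members move together between libraries, so the 58 are not independent of each other. In W1, W4, W5 and K3 only 13, 11, 19 and 14 of the 76 members lay above their own mean over the 10 libraries. In W2, W3, K1, K2, K4 and K5 the counts were 60, 46, 64, 62, 51 and 49. High and low libraries thus occurred in both groups.

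The summed level of the 76 members was 1909, 2142, 2066, 1884 and 1969 CPM in W1 to W5 and 2156, 2127, 1902, 2101 and 2058 CPM in K1 to K5. The groups overlapped, with K3 below W1 and W2 above K2, K3, K4 and K5. The wild-type mean was 1994 ± 108 CPM, and that of the libraries labelled knockout was 2069 ± 100.0 CPM (SD, n = 5).

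The subunits kept nearly the same proportion in every library. The 50 genes of the large subunit, which forms the peptide bond, had a wild-type sum of 1424 ± 81.8 CPM, beside 1486 ± 75.9 CPM in libraries labelled knockout. The 25 genes of the small subunit, which holds the messenger RNA and its codons, summed to 559 ± 25.8 and 572 ± 26.2 CPM (SD, n = 5). In this count Mrps18a and Mrps30 stand with the large subunit, where the structure places their proteins, and Mrps36 stands with neither, since its protein is known as a part of the 2-oxoglutarate dehydrogenase complex. For W1 to W5 the ratio of small to large was 0.396, 0.390, 0.386, 0.400 and 0.391. For K1 to K5 it was 0.376, 0.378, 0.384, 0.389 and 0.398, and the groups overlapped. K3 had the lowest sum for the small subunit, at 525 CPM, with the other libraries labelled knockout between 580 and 586 CPM.

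**Figure D2:**
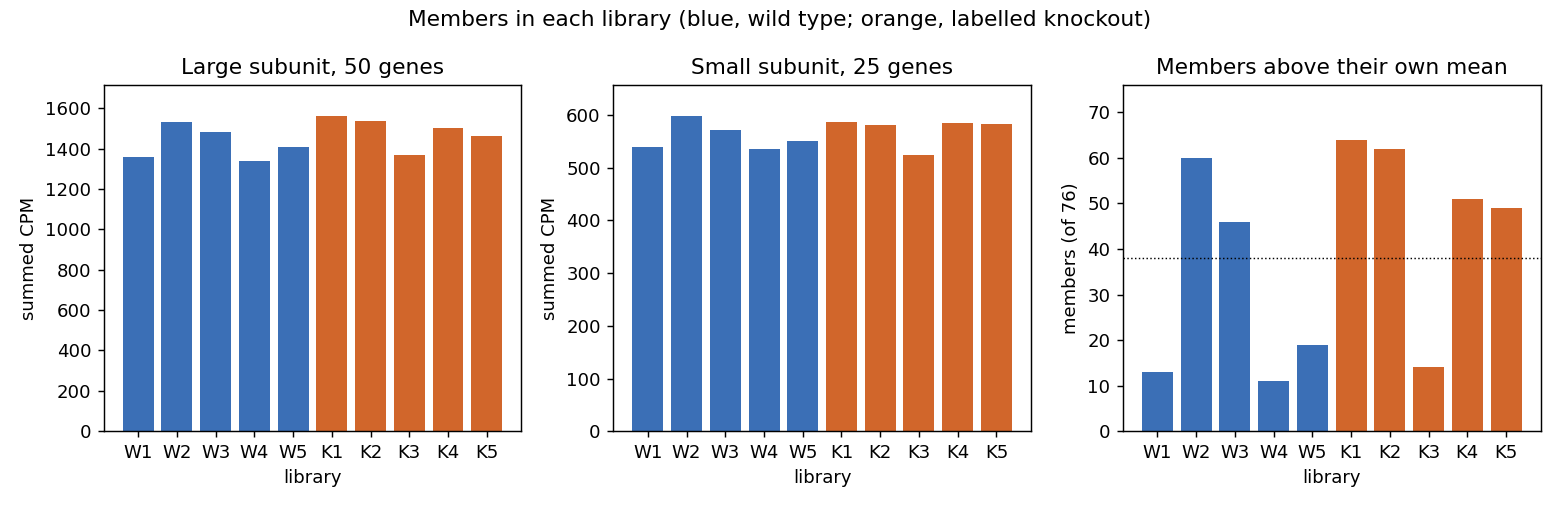
Summed CPM of the 50 large-subunit genes (left) and 25 small-subunit genes (middle), and the number of the 76 members above their own mean (right; dotted line, 38), for each library, wild type in blue and labelled knockout in orange. W1, W4, W5 and K3 are low in all panels, with 13, 11, 19 and 14 members above their mean.

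Subunits and classes of origin are given side by side, and no test between them was made. The median log2 fold change was 0.07 over the large subunit (40 of 50 positive) and 0.02 over the small (17 of 25 positive), and neither held a gene called by edgeR. The 3 genes called by DESeq2 were Mrpl47 and Mrpl55 in the large subunit and Mrps10 in the small. It was 0.06 over the 48 members with a bacterial counterpart (38 positive) and 0.04 over the 27 found only in mitochondria (19 positive). Across all tested genes, 13.8% had an unadjusted edgeR p under 0.05. At that level, of the 48 with a bacterial counterpart 8 were higher and 1 lower. Of the 27 found only in mitochondria 1 was higher and 0 lower. The former class thus lay above the share of all tested genes and the latter below it, a contrast that was not tested. Mrpl47, counted among the 8 higher members, was placed in the former class after its values were seen.

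Mrpl47, a large-subunit protein at the exit of the peptide tunnel (ENSMUSG00000037531.8, chromosome 3, 32725397 to 32737605, GRCm38), stood at 16.4, 16.97, 15.4, 16.1 and 15.4 CPM in W1 to W5 and at 20.2, 23.1, 19.2, 18.6 and 18.3 CPM in K1 to K5. Every library labelled knockout lay above every wild-type library. It was the only member in which the groups did not overlap (1.32% of members, against 3.48% of all tested genes). Its log2 fold change was 0.31 ± 0.08 (SE, n = 5), with a 95% interval of 0.13 to 0.49 and an edgeR adjusted p of 0.0753. In the annotation 24.2% of its exonic bases are shared with Actl6a and Ndufb5 on the opposite strand, and the sources used here do not say whether counting used strand. Actl6a and Ndufb5 had log2 fold changes of 0.04 and 0.07 (edgeR adjusted p = 0.904 and 0.797).

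Mrpl55, counterpart of a bacterial large-subunit protein (ENSMUSG00000036860.14, chromosome 11, 59202486 to 59206134), stood at 17.4, 16.8, 13.9, 14.2 and 15.5 CPM in W1 to W5 and at 20.7, 19.4, 17.3, 22.2 and 19.0 CPM in K1 to K5. The groups touched only where K3 fell just under W1. Its log2 fold change of 0.34 ± 0.09 (SE, n = 5), the largest in the family, had a 95% interval of 0.15 to 0.54 and an edgeR adjusted p of 0.0776.

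Mrps10, a small-subunit protein with a bacterial counterpart (ENSMUSG00000034729.16, chromosome 17, 47368887 to 47381417), leaned the other way. It stood at 32.7, 28.3, 29.6, 33.6 and 33.01 CPM in W1 to W5 and at 22.2, 25.6, 25.8, 28.4 and 27.2 CPM in K1 to K5. The groups overlapped only between W2 and K4. The log2 fold change was -0.28 ± 0.08 (SE, n = 5), with a 95% interval of -0.46 to -0.11 and an edgeR adjusted p of 0.0964. These 3 genes were called by DESeq2 run here, with adjusted p of 0.0199 for Mrpl47, 0.0207 for Mrpl55 and 0.0426 for Mrps10. The authors' deposited table gives them adjusted p of 0.0239, 0.0239 and 0.0422 and log2 fold changes of 0.286, 0.312 and -0.263.

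**Figure D3:**
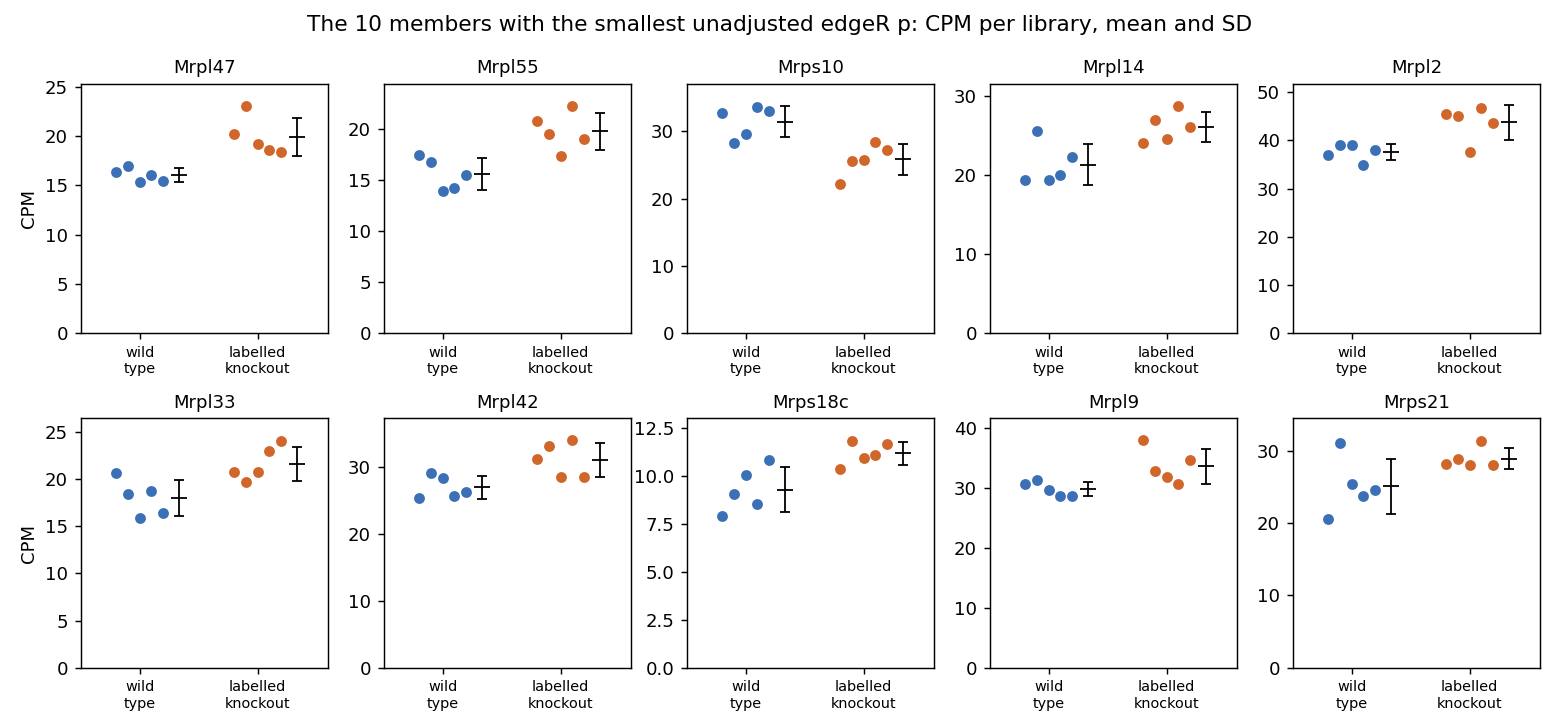
CPM in each library for the 10 members with the smallest unadjusted edgeR p, wild type in blue and labelled knockout in orange, with mean and SD in black. Mrpl47 is the gene whose groups are fully apart, at 15.4 to 16.97 against 18.3 to 23.1 CPM, and Mrps10 is the gene with the lower level in libraries labelled knockout.

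Mrpl14, at the face of the large subunit where the silencing factor MALSU1 binds, stood at 19.4, 25.5, 19.4, 19.95 and 22.3 CPM in W1 to W5 and at 24.0, 27.0, 24.5, 28.7 and 26.1 CPM in K1 to K5. W2 lay among the libraries labelled knockout, and the edgeR adjusted p of 0.133 (log2 fold change 0.29 ± 0.09, SE) became 0.0231 when W2 was left out. Mrpl2, near the site of peptide bond formation, stood at 36.9, 39.0, 39.1, 35.0 and 37.98 CPM in W1 to W5 and at 45.6, 45.2, 37.7, 46.7 and 43.6 CPM in K1 to K5. Apart from K3, its groups were separate (log2 fold change 0.22, edgeR adjusted p = 0.151).

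Mrpl33, counterpart of a small bacterial large-subunit protein, stood at 20.6, 18.4, 15.9, 18.7 and 16.4 CPM in W1 to W5 and at 20.7, 19.7, 20.8, 22.9 and 24.0 CPM in K1 to K5. W1 lay above K2 and the remaining libraries were separate by group (log2 fold change 0.27, 95% interval 0.07 to 0.46, edgeR adjusted p = 0.183). It lies at chromosome 5, 31596935 to 31664384, 1.58 Mb from Il6, and is the nearest of the 4 members on that chromosome. Alleles carried along from the donor strain of the knockout and an effect of Il6 itself cannot be told apart there.

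The remaining 4 of the 10 members with the smallest p overlapped between groups and had edgeR adjusted p from 0.224 to 0.354. Mrpl42, a protein found only in mitochondrial ribosomes, averaged 27.0 ± 1.68 CPM over W1 to W5, beside 31.1 ± 2.58 CPM over K1 to K5 (log2 fold change 0.21). For Mrps18c, a small-subunit protein with close relatives in the family, these values were 9.30 ± 1.17 and 11.2 ± 0.595 CPM (log2 fold change 0.27). Its exonic bases are 23.2% shared with Gm43511 on the same strand. Mrpl9 stood at 29.8 ± 1.18 and 33.5 ± 2.87 CPM (log2 fold change 0.17) and Mrps21 at 25.1 ± 3.80 and 28.9 ± 1.42 CPM (0.20), both being counterparts of bacterial proteins. In Mrps21, K4 stood apart at 31.4 CPM from 28.0 to 28.9 CPM in the other libraries labelled knockout, and W2 at 31.1 CPM was close to it.

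Although the proteins work in a fixed ratio, the transcript levels per exonic length ranged 17.6-fold, from 2.63 to 46.3 CPM per kb. Mrpl34 was highest with 46.3 CPM per kb, followed by Mrpl49 with 42.4 and Mrps21 with 36.5. Mrps35, Mrpl33 and Mrpl1, a protein of the mobile stalk at the transfer RNA exit, were lowest with 2.63, 2.70 and 3.19 CPM per kb. Within their spread Mrpl34 and Mrpl49 overlapped, as did Mrps35 and Mrpl33. Exonic length is the union over all annotated transcripts, 7326 bases for Mrpl33 and 607 for Mrpl34, so a gene with long rarely used exons is placed too low.

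The highest and lowest members overlapped between groups. Mrpl34 stood at 21.6, 30.2, 29.5, 21.9 and 26.4 CPM in W1 to W5 and at 31.0, 27.3, 26.4, 34.3 and 32.3 CPM in K1 to K5 (log2 fold change 0.22, edgeR adjusted p = 0.375). Mrpl49, at 80.0 ± 11.1 and 79.3 ± 11.4 CPM, had the most reads of the family and a log2 fold change of -0.01 (edgeR adjusted p = 0.978). Mrpl1 was among the steadiest, at 13.5 ± 0.454 and 13.8 ± 0.840 CPM. Mrps35 stood at 23.1 ± 3.43 and 22.2 ± 2.003 CPM.

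**Figure D4:**
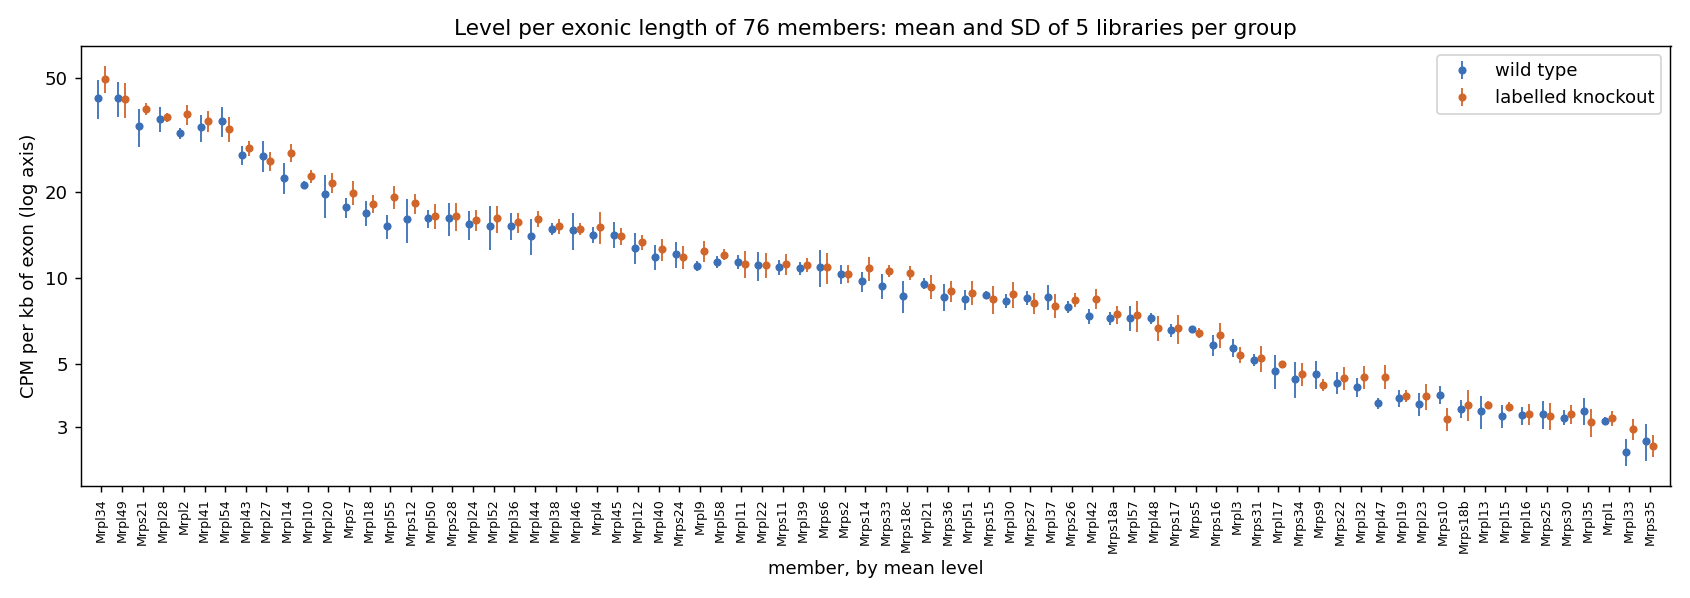
Level of each of the 76 members in CPM per kb of exon on a log axis, as mean and SD of 5 libraries, wild type in blue and labelled knockout in orange, ordered by mean level. Levels run from 46.3 for Mrpl34 to 2.63 for Mrps35, a 17.6-fold range.

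Members varied within a group about as much as other genes of like level. The members' coefficient of variation, pooled over the groups, had a median of 9.01% and ran from 3.30% in Mrps5 to 14.3% in Mrpl52. The 8062 other tested genes in the same range of levels had a median of 9.74%. Mrpl52, Mrpl49 and Mrps6 varied most. Mrps6 stood at 15.1, 19.3, 19.0, 13.5 and 16.5 CPM in W1 to W5 and at 18.5, 19.3, 14.7, 15.2 and 15.7 CPM in K1 to K5, with a log2 fold change of 0.00 (95% interval -0.24 to 0.25). Its exonic bases are 19.9% shared with Gm49711 and Slc5a3 on the same strand. Mrpl52 averaged 16.8 ± 2.94 CPM in wild type, beside 17.9 ± 1.93 CPM in the other group, with a log2 fold change of 0.09 (edgeR adjusted p = 0.800).

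The RNA partners of these proteins were called, unlike the proteins' own messages. mt-Rnr2, the ribosomal RNA of the large subunit, stood at 2402, 2557, 2550, 1940 and 2316 CPM in W1 to W5 and at 3358, 3988, 3252, 4080 and 3240 CPM in K1 to K5. It rose by a log2 fold change of 0.61 ± 0.11 (SE, n = 5; edgeR adjusted p = 0.00537), with every library labelled knockout above every wild-type library. mt-Rnr1, the ribosomal RNA of the small subunit, stood at 559.1, 568.4, 647, 431 and 477 CPM in W1 to W5 and at 730, 791, 649, 976 and 708 CPM in K1 to K5. It rose by 0.52 ± 0.12 (edgeR adjusted p = 0.0375), and only W3 and K3 came close to each other. Its call was lost when W1, W4, W5, K2, K4 or K5 was left out (edgeR adjusted p from 0.0598 to 0.108) or W5 and K5 together (0.111), while mt-Rnr2 was called under all 17 alternatives. The change of the RNAs was not tested against that of the proteins. The sources used here do not say how ribosomal RNA was handled in library preparation, and reads from mitochondrial DNA copies in the nuclear genome may be counted with either gene.

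Other subunits and helpers mostly did not pass the test. For the lists below, the share of all tested genes called by edgeR was 2.03%. None of 5 subunits with names outside the Mrp series was called by edgeR or DESeq2, and 0 had an unadjusted edgeR p under 0.05, the smallest p being that of Dap3, a GTP-binding protein of the small subunit (58.4 ± 2.56 and 63.3 ± 2.63 CPM, edgeR adjusted p = 0.410). Of 27 assembly factors and RNA-modifying enzymes, 1 fell and 0 rose (median log2 fold change 0.04). It was Trub2, a mitochondrial RNA pseudouridine synthase, at 33.5, 25.2, 37.3, 38.3 and 34.0 CPM in W1 to W5 and 27.9, 23.1, 23.6, 20.1 and 24.2 CPM in K1 to K5. W2 lay below K1, and the log2 fold change was -0.50 ± 0.11 (SE, n = 5; edgeR adjusted p = 0.0285). It was called under 10 of 18 settings including the one reported, and lost its call without W1, W3, W4, K2, K3, K4 or K5 (edgeR adjusted p from 0.0555 to 0.0901) and without W5 and K5 together (0.100). Its exons share 17.1% of their bases with Coq4 and Gm13547 on the opposite strand.

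Of 17 translation factors and messenger RNA partners, 0 were called by edgeR or DESeq2 and 0 had an unadjusted edgeR p under 0.05, and the smallest p was that of Lrpprc, which stabilises mitochondrial messages (edgeR adjusted p = 0.675). Of 17 mitochondrial aminoacyl-tRNA synthetases, 1 fell and 0 rose (median -0.07). This was Wars2, which loads tryptophan (ENSMUSG00000004233.14, chromosome 3, 99141068 to 99239186), at 14.8, 14.2, 14.8, 15.6 and 13.2 CPM in W1 to W5 and 10.05, 10.6, 9.41, 9.63 and 8.57 CPM in K1 to K5. The groups did not overlap, and Wars2 fell by 0.59 ± 0.09 on the log2 scale (SE, n = 5; edgeR adjusted p = 0.00228), a call kept under all 17 alternatives.

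Genes that copy and transcribe mitochondrial DNA numbered 11, of which 1 rose and 0 fell (median 0.05). Polg2, the accessory subunit of the mitochondrial DNA polymerase, stood at 35.4, 41.2, 42.2, 38.8 and 37.9 CPM in W1 to W5 and 55.7, 50.3, 45.4, 46.3 and 44.8 CPM in K1 to K5. The groups did not overlap, with a log2 fold change of 0.31 ± 0.08 (SE, n = 5; edgeR adjusted p = 0.0478). The call was lost when any library other than W2 was left out (edgeR adjusted p from 0.0598 to 0.120), with W5 and K5 left out together (0.111) and with limma-voom (adjusted p = 0.0579). Of 10 transcription regulators of nuclear mitochondrial genes 0 were called by edgeR. At an unadjusted edgeR p under 0.05, 2 of the 10 were higher and 2 lower, a larger share than the 13.8% of all tested genes. That difference in share was not tested. Hcfc1, a cofactor of such regulators, had the smallest p, at 140 ± 6.97 CPM in wild type beside 115 ± 12.6 CPM (SD, n = 5), a log2 fold change of -0.28 (edgeR adjusted p = 0.0777). It was called lower by DESeq2 (adjusted p = 0.0262) and by edgeR without K1 (log2 fold change -0.345, adjusted p = 0.0171). Nrf1 and Gabpa, which bind the motifs searched above, had log2 fold changes of 0.05 and 0.01, and Yy1 of -0.11 (edgeR adjusted p = 0.794, 0.974 and 0.565).

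**Figure D5:**
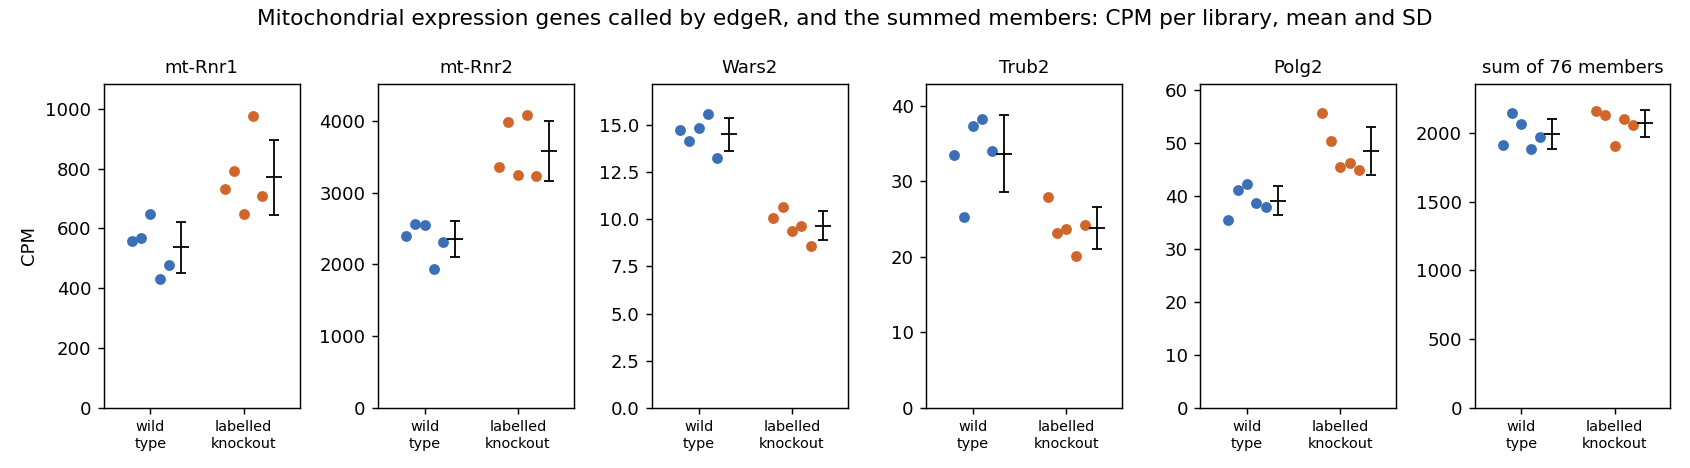
CPM in each library of both mitochondrial ribosomal RNAs, Wars2, Trub2, Polg2 and the sum of the 76 members, wild type in blue and labelled knockout in orange, with mean and SD in black. mt-Rnr2 rose from 2353 to 3584 CPM on average, while the summed members overlapped at 1994 and 2069 CPM.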

How the data were processed

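RNA sequencing counts of 5 wild-type libraries and 5 libraries labelled knockout were compared. The authors deposited raw counts, whole numbers of reads per gene, in 1 table. Per the submitters' processing notes, STAR 2.5.3a, featureCounts 1.15.2 and DESeq2 1.14 were used on GRCm38.p5. The strand setting and the treatment of reads with several matches are not given in the sources used here. A DESeq2 comparison by the authors stands in the same table, per the file headers. Its deposited log2 fold changes and p-values were used where named, and its deposited mean signal was not used.

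Genes were kept with edgeR 4.0.16 filterByExpr (minimum count 10, minimum total 15), leaving 18965, scaled by TMM, and tested with glmQLFTest, genotype being the only term. Benjamini-Hochberg adjustment ran over all 18965, and a gene was called at adjusted p under 0.05. SE is the absolute log2 fold change over the square root of F. The 95% intervals use the total degrees of freedom of that test, residual plus prior. The same code was checked on simulated data. DESeq2 1.42.0 and limma 3.58.1 (voom), with other factors, filters and left-out libraries, were alternatives. Exonic lengths and overlaps are from GENCODE M21 on GRCm38, where all 76 members matched. Of these members 32 share exonic bases with another gene, and 9 share over 20% of them. Library pairs of 1 group differed by at least 11.0 times sampling noise (chi-square per degree of freedom). Libraries are numbered in accession order, which pairs none.

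Members and gene lists were chosen with earlier results of these data known. Named members are the 10 with the smallest p, any called or without overlap, the 3 highest and 3 lowest per exonic length, and the 3 with the largest coefficient of variation. Named genes of other lists are those called and the smallest p in each list. Mrpl47 was moved to the class with bacterial counterparts after the data were seen. Mrps5, Mrps11, Mrps18a, Mrps30, Mrps36, Mrpl46, Nrf1, Gabpa and Yy1 were named outside the rule.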

Additional observations from a re-analysis of the deposited data

Results flagged for a closer look

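Of 60 groups of 5 libraries checked for a library far from the rest, 4 held one, where chance gives about 1 in 20. In libraries labelled knockout, K3 had a small-subunit sum of 525 CPM, with the others between 580 and 586 CPM. Per exonic length the same sum was 224 CPM per kb in K3, with the others between 246.9 and 252.1. Mrps21 stood at 31.4 CPM in K4, with the others between 28.0 and 28.9 CPM. Lrpprc stood at 112 CPM in K1, with the others between 84.5 and 89.8 CPM.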

How the results depend on the processing

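No paired analysis was possible because the labels give no replicate numbers that the groups share. Among members, 0 were called under every alternative except DESeq2 (2 higher, 1 lower) and the fit without W2 (1 higher, 1 lower, Mrpl14 and Mrps10); with single libraries left out the counts ran from 0 to 1 in each direction. The members' median log2 fold change stayed between 0.025 and 0.080. Over all tested genes, DESeq2 called 314 higher and 388 lower, the fit with no low-count filter 298 and 406, and the fit without W5 and K5 together 107 higher. Leaving out single libraries gave 71 to 253 higher and 140 to 289 lower. The count of assembly factors called lower was 0 without W5 and K5 together and 0 to 1 with single libraries left out, and that of aminoacyl-tRNA synthetases called lower was 2 with DESeq2. All members were refitted under the alternatives, but single values were followed only for the 16 named by rule. Among these the sign of 3 uncalled members near 0 changed, and other members near 0 were not checked for this. Mrpl49 was 0.0666 without W5 and K5 together and ran from -0.102 to 0.0521 with single libraries left out. Mrps35 was 0.0087 without W5 and K5 together and ran from -0.103 to 0.0207. Mrps6 was -0.0008 with no low-count filter and ran from -0.0663 to 0.0582. The cause of these changes was not tested. K5 alone carries a second index sequence that differs, and without it 0 members were called. The 95% intervals, which include the spread between libraries, had a median half-width of 0.18 on the log2 scale per member.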

Other observations

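The members left out for their -ps names were barely read. Mrps36-ps1, Mrpl48-ps, Mrps36-ps2 and Mrpl23-ps1 had 79, 97, 34 and 91 counts in all 10 libraries together, and none passed the low-count filter.

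Members lie on 17 chromosomes. Of the 5 with the smallest p, 3 lie within a short stretch of chromosome 17, an observation made after the values were seen. Mrpl14 (45686322 to 45698495) and Mrpl2 (46646229 to 46650139) had log2 fold changes of 0.29 and 0.22, and Mrps10 (47368887 to 47381417) of -0.28. Mrps18a lies between them (46110986 to 46128910) and had a log2 fold change of 0.05 (edgeR adjusted p = 0.837).

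The pair read from opposite strands of a shared promoter differed little. Mrps11 stood at 23.6 ± 1.44 and 24.3 ± 2.01 CPM, and Mrpl46 at 20.8 ± 3.04 and 21.0 ± 1.04 CPM (wild type and labelled knockout; SD, n = 5). Their log2 fold changes were 0.04 and 0.02. In the annotation 7.97% of the exonic bases of Mrps11 and 12.2% of those of Mrpl46 are shared by both.

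The median log2 fold change was 0.08 over members with the ETS letters in a promoter window and 0.04 over those without. For the NRF1 letters it was 0.08 with and 0.05 without, for the YY1 letters 0.01 and 0.06, and for the SP and KLF letters 0.05 and 0.05. These values were not tested.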
